A study of Mus musculus with 28 samples.

Results

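The 10 adipocyte genes Adipoq, Cfd, Retn, Lep, Adrb3, Plin1, Cidec, Plin4, Fabp4 and Pparg were followed in mouse tibialis anterior (TA), a fast muscle of the lower leg. They were chosen by name as genes of the mature fat cell, with earlier results of these data known. Each symbol mapped to 1 gene identifier in both raw count tables, 10 of 55359 in the Bin1 cohort and 10 of 55416 in the Dnm2 cohort. After the filter on low counts, 9 of the 10 were among the 14841 genes tested in the Bin1 cohort (Lep was not) and all 10 were among the 15439 tested in the Dnm2 cohort. The data were bulk poly(A) RNA-seq of 28 mice aged 8 weeks, in 7 groups of 4. The Bin1 cohort held WT mice on placebo, Bin1 mck-/- mice on placebo and Bin1 mck-/- mice on tamoxifen, and no WT mice on tamoxifen. In Bin1 mck-/- mice the deletion of Bin1, which encodes the membrane-bending protein amphiphysin 2, is driven by the muscle creatine kinase promoter. The Dnm2 cohort held WT and Dnm2 S619L/+ mice, each on placebo and on tamoxifen. The S619L allele of Dnm2, which encodes the membrane-cutting GTPase dynamin 2, was heterozygous. Both lines are models of centronuclear myopathy, and the comparisons asked how disease and tamoxifen, a drug that binds estrogen receptors, changed the muscle transcriptome.

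White fat cells store triglyceride in a large droplet and release fatty acids and hormones. PPARG, a nuclear receptor, and the C/EBP factors drive precursor cells to become fat cells and keep the genes of the mature cell on. Healthy skeletal muscle holds few fat cells between its fibers, and these can arise from PDGFRA-positive precursors in the connective tissue. Adipoq (adiponectin), Cfd (the serine protease adipsin, or complement factor D), Retn (resistin) and Lep (leptin) encode proteins that fat cells secrete. Adrb3 encodes the beta-3 adrenergic receptor, through which noradrenaline starts lipolysis. Plin1 and Cidec encode proteins of the droplet surface: perilipin 1 guards the stored fat, and CIDEC fuses droplets into larger ones. Other cells share some of the genes, because Fabp4, a fatty acid carrier, is also made by capillary endothelium and macrophages, Plin4 coats droplets in muscle fibers too, and Pparg is also transcribed in endothelium and macrophages.

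The promoters of Plin1, Cidec and Cfd, which rose in Bin1 mck-/- muscle, and of Adipoq, which did not pass the threshold, are shown to give the letters upstream of genes with like patterns. RefSeq's promoter table for GRCm38.p6 held 11 start sites for 8 of the 10 genes, each as 300 bases of which 250 lie before the start. Adrb3 and Fabp4 were not matched. Capitals mark each match, on either strand, to the core letters TTGCNNAA that C/EBP factors can bind. The deposited counts use another build, mm39, so the coordinates belong to the reference only.
Plin1, chr7:79732727-79733026, minus strand: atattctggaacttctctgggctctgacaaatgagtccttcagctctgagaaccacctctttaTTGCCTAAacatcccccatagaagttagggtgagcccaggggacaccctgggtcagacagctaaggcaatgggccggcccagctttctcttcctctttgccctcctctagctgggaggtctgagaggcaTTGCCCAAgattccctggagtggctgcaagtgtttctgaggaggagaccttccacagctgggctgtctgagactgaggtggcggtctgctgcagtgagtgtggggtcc
Cidec, chr6:113434715-113435014, minus strand: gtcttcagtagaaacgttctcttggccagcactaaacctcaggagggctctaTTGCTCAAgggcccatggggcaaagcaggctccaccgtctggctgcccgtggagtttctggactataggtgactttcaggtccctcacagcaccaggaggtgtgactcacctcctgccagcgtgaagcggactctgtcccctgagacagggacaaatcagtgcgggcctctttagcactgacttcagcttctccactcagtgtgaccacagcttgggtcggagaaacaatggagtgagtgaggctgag
Cfd, chr10:79890603-79890902, plus strand: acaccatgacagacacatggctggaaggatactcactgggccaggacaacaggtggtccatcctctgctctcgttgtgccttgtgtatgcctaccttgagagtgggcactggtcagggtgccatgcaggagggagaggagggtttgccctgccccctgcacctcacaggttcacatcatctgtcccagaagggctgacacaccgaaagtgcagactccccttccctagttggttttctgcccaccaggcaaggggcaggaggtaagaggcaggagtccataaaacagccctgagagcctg
Adipoq, chr16:23146286-23146585, plus strand: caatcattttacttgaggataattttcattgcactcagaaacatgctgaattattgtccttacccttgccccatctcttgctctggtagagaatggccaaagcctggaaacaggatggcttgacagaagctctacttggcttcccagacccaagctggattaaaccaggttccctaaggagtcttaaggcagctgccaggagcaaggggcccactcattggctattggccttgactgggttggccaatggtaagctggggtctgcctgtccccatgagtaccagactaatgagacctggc
The core was found in the Plin1 promoter at 187 and 58 bases before the start and in Cidec at 198 bases before the start shown, which is start 1. The window of Cidec start 2, which is not shown, held none, and neither did the windows of Cfd and Adipoq. Of the 11 promoters, 4 held it, from 4 genes (Plin1, Cidec, Lep and Pparg), against 10.8% of the 32851 promoters in the table. The match in Lep, 55 bases before the start, was the full palindrome TTGCGCAA, which 0.183% of promoters hold and which also counts as a match to the core. The short motif AGGTCA, which nuclear receptors can bind, was in 16.3% of all promoters on either strand and, of the 8 genes, in Pparg alone (starts 1 and 2). A direct repeat of 2 such motifs with 1 base between them, a consensus for PPARG with its partner RXR, was in 0 of the 8 genes' windows and in 0.0396% of all promoters. A match describes letters, and the lack of one says only that these letters are not in this window.

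Reads on genes ranged from 24671835 to 35136327 a mouse in the Bin1 cohort and from 15586333 to 109710886 in the Dnm2 cohort. Bin1 averaged 539.5 CPM (counts-per-million of the reads on genes, scaled by TMM factors) in WT and 56.1 CPM in Bin1 mck-/- muscle on placebo, as the labels say. The 3 keratinocyte markers summed to at most 0.0696 CPM in any mouse, and the 8 muscle fiber markers to at least 100905 CPM. The cohorts differed in RNA input (350 against 300 ng) and in fragmentation (8 against 2 minutes), so cohort, preparation and disease model cannot be told apart. The labels give no sex. Xist was between 70.8 and 115 CPM in the 12 mice of the Bin1 cohort, and the Y-linked Ddx3y was at 0 in each. In the Dnm2 cohort Ddx3y was the higher of these in 2 of 4 mice of WT placebo, WT tamoxifen and Dnm2 S619L/+ placebo, and in 0 of the 4 Dnm2 S619L/+ mice on tamoxifen, so sex was not balanced over its groups. In bulk muscle, fewer fat cells and less RNA per fat cell cannot be told apart.

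**Figure D1:**
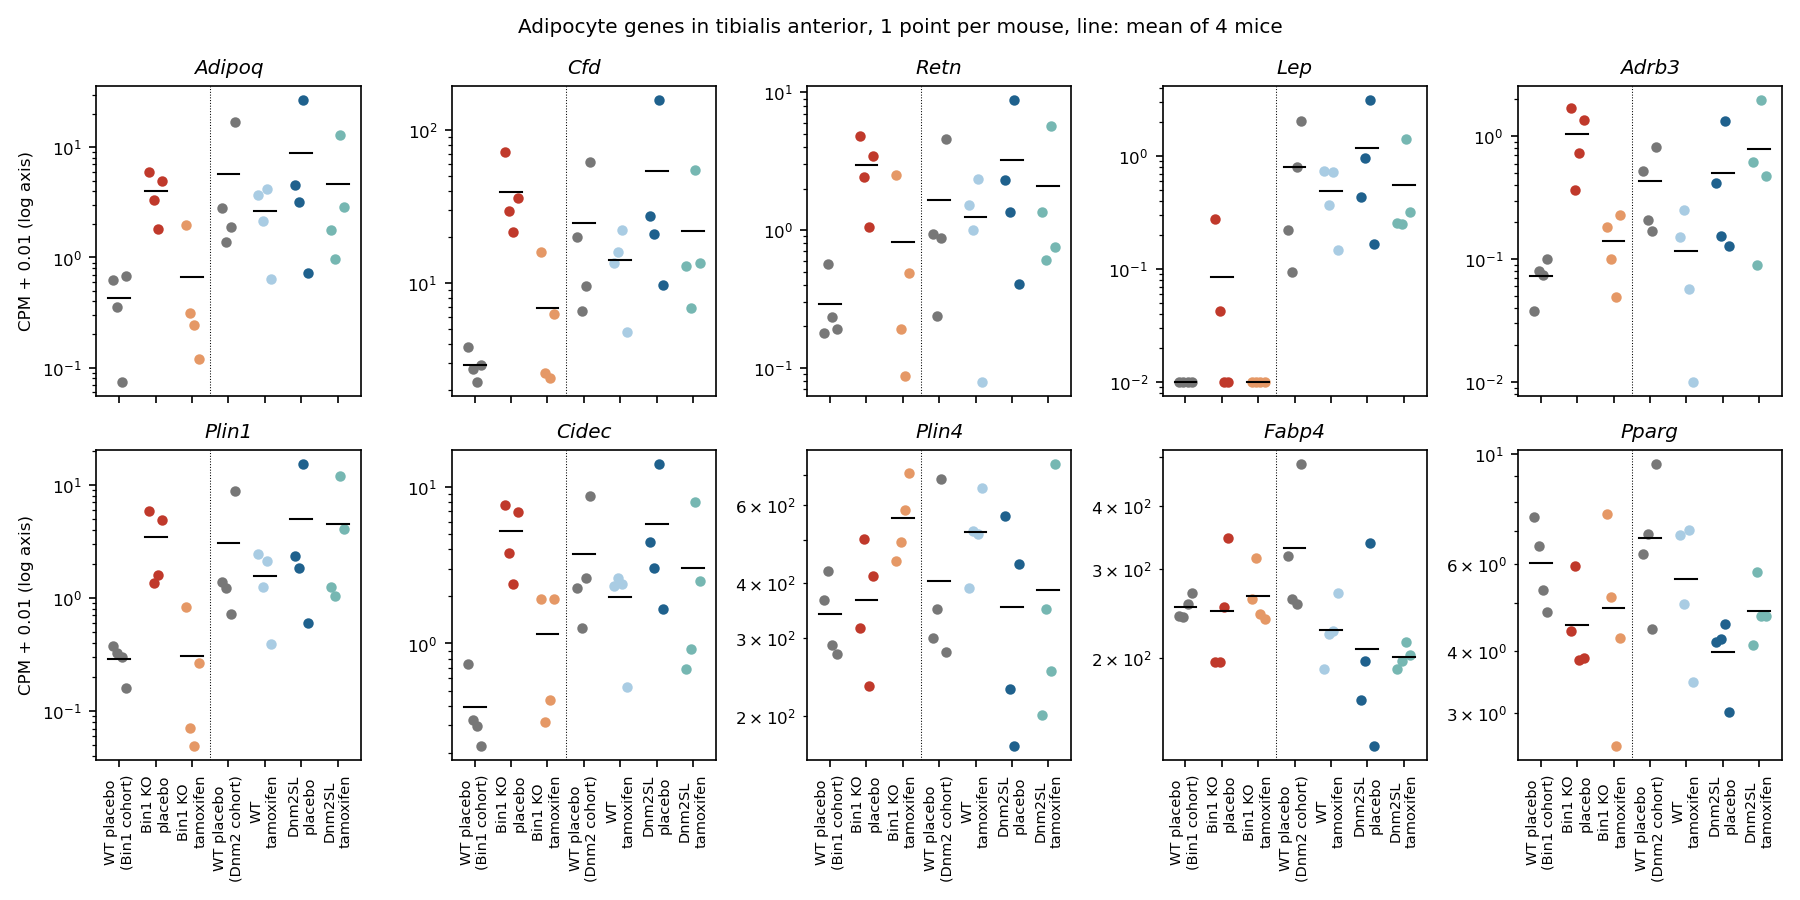
Level of each of the 10 genes in each mouse, as CPM + 0.01 on a log axis, with the 7 groups on the horizontal axis; each point is a mouse and the line is the mean of 4. Adipoq, Cfd, Retn, Adrb3, Plin1 and Cidec of the 4 Bin1 mck-/- placebo mice lie above all 4 WT mice of their cohort.

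Levels were compared between the genes per kilobase of exon. In WT muscle of the Bin1 cohort, Plin4 and Fabp4 were the highest of the 10, at 58.8 ± 12.2 and 56.1 ± 2.89 CPM per kb (SD, n = 4), levels that did not differ beyond their spread. Cfd followed at 3.15 ± 0.696 and Pparg at 2.04 ± 0.407 CPM per kb. Adipoq, Cidec and Retn came next at 0.306 ± 0.200, 0.207 ± 0.125 and 0.179 ± 0.117 CPM per kb, within each other's spread. Plin1 stood at 0.0599 ± 0.0196 and Adrb3 at 0.0186 ± 0.00769 CPM per kb, and Lep had no read. In Bin1 mck-/- muscle on placebo Cfd, at 43.0 ± 23.9 CPM per kb, lay within the spread of Plin4 and Fabp4, at 63.5 ± 20.2 and 55.2 ± 15.7, and Adipoq and Cidec, at 2.91 ± 1.34 and 2.79 ± 1.35, had means above that of Pparg, at 1.52 ± 0.332 CPM per kb. Lengths were those of all annotated exons together, 4489 bases for Fabp4, which can overstate the transcript and so understate the level.

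The comparison of Bin1 mck-/- with WT muscle, both on placebo, asked what loss of amphiphysin 2 changed. Plin1, Cidec, Cfd and Adrb3 rose past the threshold, with means 12.3, 13.5, 13.7 and 16.4 times those of WT. Adipoq and Retn had means 9.53 and 10.4 times those of WT and did not pass. In these 6 genes no knockout mouse overlapped with a WT mouse, whereas Fabp4, Pparg and Plin4 overlapped. Changes are log2 fold changes ± SE from edgeR, and p-values are Benjamini-Hochberg adjusted over all 14841 genes.

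Among the secreted proteins, Adipoq was at 0.615, 0.348, 0.0640 and 0.662 CPM in WT mice 5 to 8 and at 6.0, 3.31, 1.80 and 4.98 CPM in Bin1 mck-/- placebo mice 1 to 4. The lowest knockout mouse was above the highest WT mouse, with a log2 difference of 3.07 ± 0.78 (adjusted p = 0.0545). Cfd was at 3.77, 2.71, 2.24 and 2.89 CPM in WT mice and at 71.5, 29.6, 21.6 and 36.0 CPM in knockout mice. It rose by 3.74 ± 0.61 on the log2 scale (adjusted p = 0.0263), from 2.90 ± 0.641 to 39.7 ± 22.0 CPM (SD, n = 4 each). Retn was at 0.168, 0.556, 0.224 and 0.181 CPM in WT and at 4.82, 2.41, 1.04 and 3.46 CPM in the knockout, a log2 difference of 3.12 ± 0.86 (adjusted p = 0.0602). Lep had 9 reads in knockout mouse 1 and 1 in mouse 2, and none in mice 3 and 4. The WT group had 0 Lep reads, which allows up to 0.0228 CPM over its 4 libraries for counting error only. Knockout mouse 1, with most Lep reads, was also the highest of its group in Adipoq, Cfd, Retn, Plin1, Cidec and Adrb3.

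Of the droplet proteins, Plin1 was at 0.363, 0.313, 0.288 and 0.151 CPM in WT mice 5 to 8 and at 5.83, 1.35, 1.58 and 4.90 CPM in knockout mice 1 to 4, a rise of 3.34 ± 0.71 (adjusted p = 0.0267). Cidec was at 0.727, 0.313, 0.288 and 0.211 CPM in WT and at 7.69, 3.80, 2.37 and 6.87 CPM in the knockout, a rise of 3.54 ± 0.62 (adjusted p = 0.0147). In both genes mice 1 and 4 were the highest of the knockout, and even the lowest knockout mouse was above every WT mouse. Plin4, which muscle fibers also use, was at 367, 427, 289 and 276 CPM in WT and at 317, 502, 234 and 415 CPM in the knockout. These ranges overlapped, with a log2 difference of 0.11 ± 0.22 (adjusted p = 0.831).

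Adrb3, the receptor, had 1, 2, 2 and 3 reads in WT mice 5 to 8 and 57, 11, 23 and 51 reads in knockout mice 1 to 4. It rose by 3.11 ± 0.72 (adjusted p = 0.0119) and passed the filter on low counts only through the knockout placebo mice, as did Plin1 and Retn. Fabp4 was at 243, 241, 255 and 269 CPM in WT and at 197, 196, 252 and 346 CPM in the knockout, a log2 difference of -0.02 ± 0.16 (adjusted p = 0.953). The knockout mice lay on both sides of the WT mice. Pparg was at 7.46, 6.50, 5.31 and 4.79 CPM in WT and at 4.38, 5.92, 3.83 and 3.86 CPM in the knockout, where 3 of 4 mice were under the lowest WT mouse, and its log2 difference was -0.42 ± 0.27 (adjusted p = 0.416).

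Because Plin1, Retn and Adrb3 entered the test only through the group in which they were high, the count over the 9 genes tested is a description. The genes were also chosen with earlier results of these data known, so a count over the other 6 is a description too. Of the 6 that pass the filter without the knockout placebo mice, 2, Cidec and Cfd, were called higher, against 1.91% of the 14160 genes that do. Of all 9, 4 were called higher and 0 lower, where 1.99% of all genes were called higher and 0.627% lower. With no filter, Plin1, Cidec, Cfd and Adrb3 were called. At an unadjusted p of 0.05, 6 of the 9 passed, as did 20.2% of all genes. The knockout mice were all above the WT mice in 6 of the 9, against 9.09% of all genes. DESeq2 and a fit on these 8 mice alone called 6, namely Plin1, Cidec, Cfd, Adrb3, Adipoq and Retn, and over all genes they called 1149 of 26465 and 1458 of 14376. The number called depended on single mice. It was 2 without knockout mouse 1 or 4 or WT mouse 5, 1 without WT mouse 7 and 0 without WT mouse 6 or 8, and it was 6 without knockout mouse 3 or without tamoxifen mouse 1, 2 or 3, which share the fit. Over all genes the calls went from 388 to 26 without WT mouse 6 and to 18 without WT mouse 8. Over all fits that left out 1 mouse, Plin1, Cidec, Cfd and Adrb3 had log2 fold changes between 2.78 and 3.96.

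**Figure D2:**
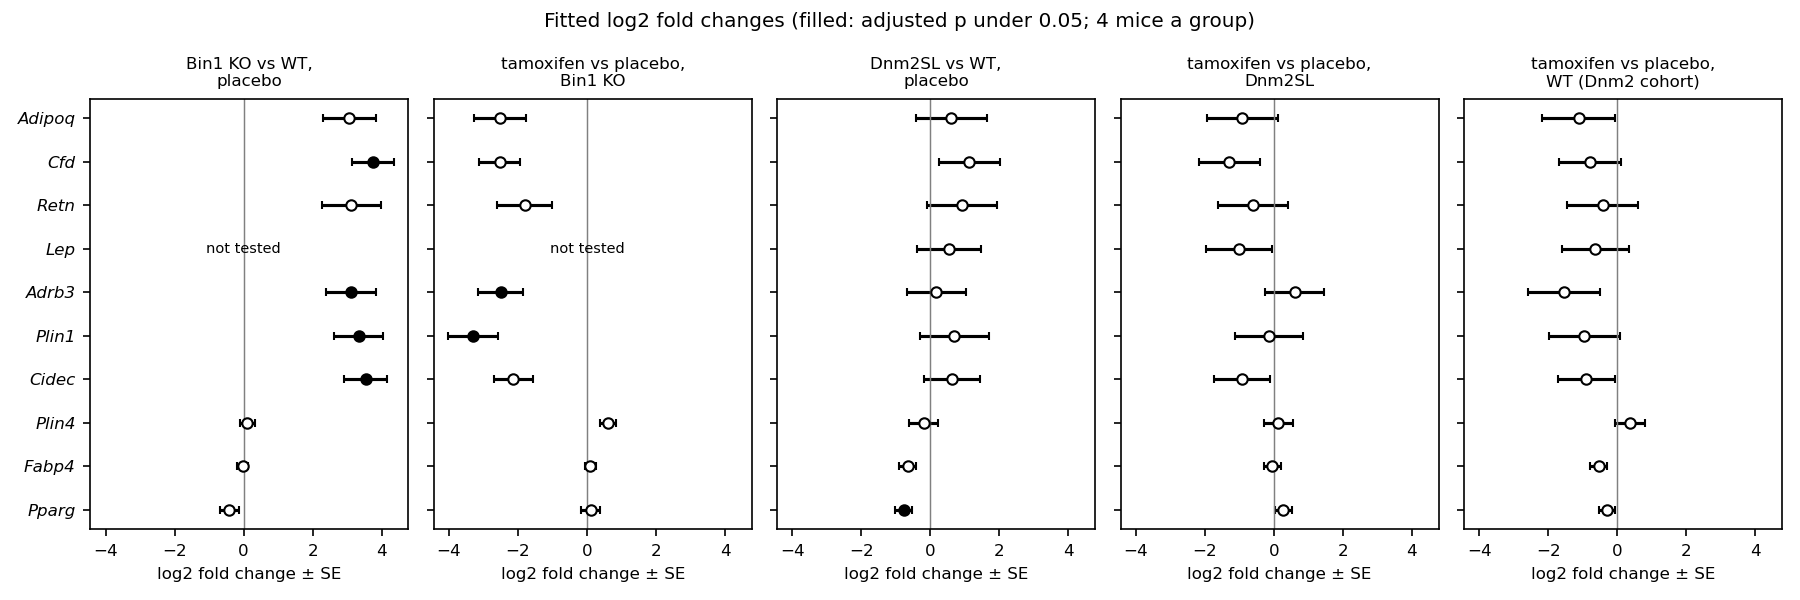
Fitted log2 fold change ± SE of each of the 10 genes (rows) in 5 comparisons (panels), 4 mice a group; filled points passed an adjusted p of 0.05. In Bin1 mck-/- (Bin1 KO) against WT muscle, 6 genes lie between 3.07 and 3.74 and Plin4, Fabp4 and Pparg lie near 0, and in Dnm2 S619L/+ (Dnm2SL) against WT muscle the same 6 genes lie between 0.18 and 1.13 with wider errors.

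Further genes of fat cells and of lipid storage were taken from lists set by function, with earlier results of these data known. Of 18 other fat cell genes, 12 were tested and 3 were called, where 1.99% of all genes were called higher and 0.627% lower. The 3 include Slc7a10, which entered the test only through the group in which it was high, so this count is a description. Cyp2e1, a cytochrome P450, rose by 4.39 ± 0.75 (adjusted p = 0.0136), from 0.263 to 6.82 CPM. Slc7a10, an amino acid transporter of white fat cells, rose by 2.91 ± 0.99 (adjusted p = 0.0453), with WT mice at 0.140, 0, 0 and 0.0903 CPM and knockout mice at 1.51, 0.483, 0.443 and 1.01 CPM, and it too passed the filter only through the knockout mice. Npr3, the receptor that clears natriuretic peptides, fell by 1.58 ± 0.32 (adjusted p = 0.0336). Of the 10 that pass the filter without the knockout placebo mice, 1 was called higher, Cyp2e1.

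Of 18 genes of triglyceride synthesis, 2 rose and 1 fell, where 1.99% of all genes were called higher and 0.627% lower. Pck1, which in fat cells supplies the glycerol backbone, rose by 4.09 ± 0.77 (adjusted p = 0.0203), with WT mice at 0.503, 0.417, 0.128 and 0.0903 CPM and knockout mice at 8.75, 4.31, 2.88 and 7.64 CPM. As in Plin1, knockout mice 1 and 4 were the highest. Agpat2, an acyltransferase of the same route, rose by 1.04 ± 0.24 (adjusted p = 0.0366), and Gpd1, which makes glycerol 3-phosphate, fell by 1.05 ± 0.23 (adjusted p = 0.0350), from 806 to 389 CPM. Of 12 regulators of fat cell transcription, Cebpa rose by 1.51 ± 0.30 (adjusted p = 0.0202) and Rxra, a partner of PPARG, fell by 0.63 ± 0.16 (adjusted p = 0.0486). None of 16 genes of lipolysis and the droplet surface was called by edgeR. In 3 of them, Cidea, Plin5 and Pnpla2, every knockout mouse was above every WT mouse, against 9.09% of all genes. These 3 were named after their values were seen. Cidea and Plin5 had log2 differences of 1.18 ± 0.39 and 0.90 ± 0.23 (adjusted p = 0.0961 and 0.0560), and Pnpla2 averaged 373 CPM in WT and 506 CPM in the knockout. None of 11 receptors of adipokines, insulin and catecholamines and none of 7 brown fat genes was called. The genes of the brown fat list named next were named after their values were seen. Ucp1, Lhx8 and Elovl3 had 0 reads in these 8 mice. Dio2 was between 1.67 and 2.88 CPM in WT and between 3.64 and 6.18 CPM in the knockout. Like Cidea, which is also on this list, it did not overlap, whereas Zic1, Otop1, Cpt1b, Cox8b and Ppargc1a did.

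**Figure D3:**
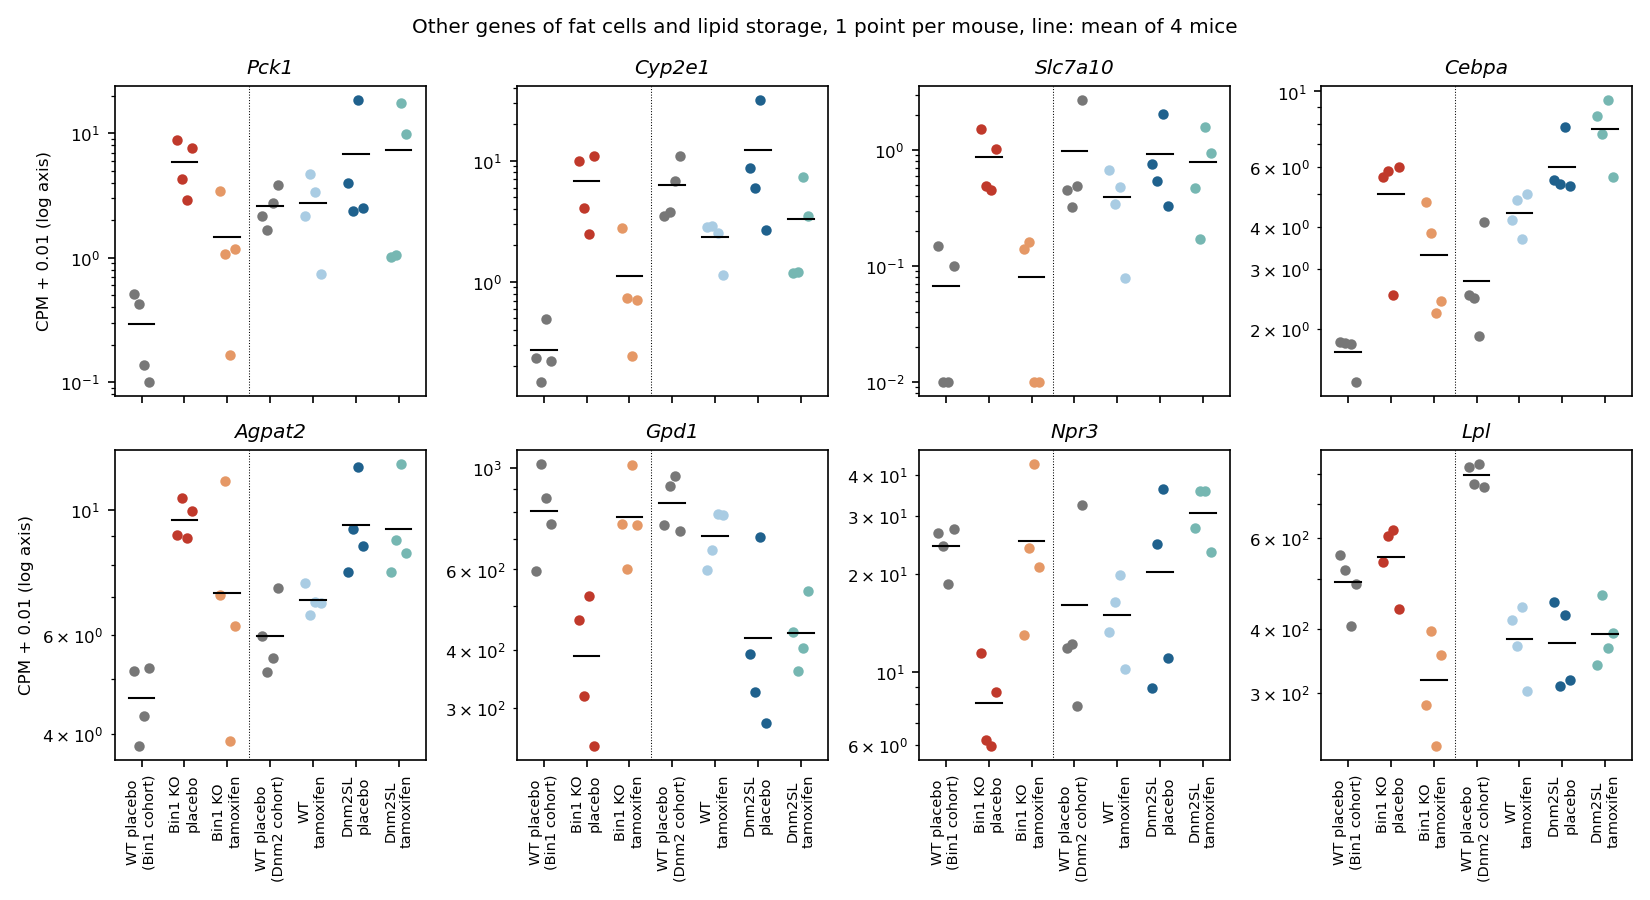
Level in each mouse of 8 genes of fat cells and lipid storage outside the 10, as CPM + 0.01 on a log axis, with the 7 groups on the horizontal axis, 1 point a mouse and a line at the mean of 4. Pck1, Cyp2e1, Slc7a10, Cebpa and Agpat2 are higher in all 4 Bin1 mck-/- placebo mice than in the 4 WT mice of that cohort, and Gpd1 and Npr3 are lower.

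Markers of other cells moved in the same comparison. The 5 macrophage markers summed to between 28.2 and 40.7 CPM in WT and between 77.0 and 156 CPM in the knockout, and 2 of the 5, Adgre1 and Cd68, rose by 2.14 ± 0.38 and 2.58 ± 0.48 (adjusted p = 0.0147 and 0.0289). The 12 markers of connective tissue precursors and fibroblasts summed to between 1000.2 and 1119 CPM in WT and between 1738 and 2169 CPM in the knockout, and 1 of the 12, Dpp4, rose by 1.26 ± 0.33 (adjusted p = 0.0498). Pdgfra, the marker of precursors that can form fat, was named after its values were seen and had a log2 difference of 1.21 ± 0.34 (adjusted p = 0.0826). Of the 8 muscle fiber markers, Pvalb, a calcium buffer of fast fibers, fell by 1.12 ± 0.28 (adjusted p = 0.0498). The 3 erythroid markers, none of them called by edgeR, summed to between 199 and 593 CPM in WT and between 533 and 1564 CPM in the knockout. The 5 endothelial markers, none of them called by edgeR, summed to between 461 and 556 CPM in WT and between 367 and 505 CPM in the knockout. The part of these cells in the levels of the fat genes was not tested.

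Tamoxifen in Bin1 mck-/- mice was compared with placebo in the same genotype. The placebo mice are those described above, so both comparisons share them. Plin1 and Adrb3 fell past the threshold, to means 0.0866 and 0.127 times those on placebo, and both were in the test only through the placebo mice, in which they were high. Adipoq, Cfd, Cidec and Retn had means 0.162, 0.172, 0.219 and 0.274 times those on placebo and did not pass. Because the cohort had no WT mice on tamoxifen, effects of the drug that depend on the disease and those that do not cannot be told apart.

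Plin1 was at 0.828, 0.0606, 0.0388 and 0.256 CPM in tamoxifen mice 1 to 4, all below the lowest placebo mouse, and fell by 3.30 ± 0.73 (adjusted p = 0.0227). Adrb3, with 4, 3, 1 and 6 reads, also lay below all placebo mice and fell by 2.5 ± 0.65 (adjusted p = 0.0229). Cidec was at 1.92, 0.303, 0.427 and 1.90 CPM, a log2 difference of -2.13 ± 0.57 (adjusted p = 0.0599). Cfd was at 16, 2.55, 2.37 and 6.28 CPM, a log2 difference of -2.53 ± 0.60 (adjusted p = 0.0590). In both genes every tamoxifen mouse was below every placebo mouse. Adipoq was at 1.96, 0.303, 0.233 and 0.110 CPM (log2 difference -2.53 ± 0.76, adjusted p = 0.0857). Retn was at 2.48, 0.182, 0.0776 and 0.475 CPM (log2 difference -1.80 ± 0.80, adjusted p = 0.209). In these genes tamoxifen mouse 1 lay within the range of the placebo mice and the other 3 lay below it. Lep had 0 reads in the group, which allows up to 0.0263 CPM over its 4 libraries.

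None of the 3 genes that other cells share was called by edgeR. Fabp4 was at 262, 315, 244 and 239 CPM on tamoxifen (log2 difference 0.10 ± 0.16, adjusted p = 0.774). Pparg was at 7.53, 5.12, 2.56 and 4.24 CPM (log2 difference 0.11 ± 0.27, adjusted p = 0.852). Plin4 was at 449.6, 495, 586 and 709.9 CPM, where 2 of 4 mice were above all placebo mice, with a log2 difference of 0.61 ± 0.22 (adjusted p = 0.139). Its log2 difference had the opposite sign to those of Plin1 and Cidec.

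Of the 6 genes that pass the filter without the knockout placebo mice, edgeR called 0 lower, against 1.62% of the genes that do. Of all 9, 2 were called lower and 0 higher, where 1.61% of all genes were called lower and 1.52% higher. Both counts are descriptions for the same reasons as above. With no filter, Plin1 and Adrb3 were called. At an unadjusted p of 0.05, 7 of the 9 passed, as did 20.7% of all genes. Tamoxifen mice were all below placebo mice in 4 of the 9, against 5.11% of all genes. Without tamoxifen mouse 1, 6 were called, namely Adipoq, Cfd, Retn, Plin1, Cidec and Adrb3. The number was 3 without placebo mouse 3 or tamoxifen mouse 2 (Plin1, Cidec and Adrb3), 1 without tamoxifen mouse 4 and 0 without placebo mouse 1, placebo mouse 4 or tamoxifen mouse 3. A fit on these 8 mice alone called 0 (122 of 14388 over all genes), and DESeq2 called 5 (1166 of 26465).

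Against WT on placebo, edgeR called none of the 9 genes in Bin1 mck-/- muscle on tamoxifen, where 0.849% of all genes were called. At an unadjusted p of 0.05, 2 of the 9 passed, as did 14.9% of all genes: Cidec (log2 difference 1.41 ± 0.65) and Plin4 (0.72 ± 0.22), and DESeq2 called Plin4 alone. All 4 tamoxifen mice, with Plin4 between 449.6 and 709.9 CPM, lay above the WT mice, between 276 and 427 CPM. The share of all genes that separate in this way in this comparison is not given here, so the separation is a description. Plin1 averaged 0.296 ± 0.368 CPM on tamoxifen and 0.279 ± 0.0910 CPM in WT (SD, n = 4 each), a log2 difference of 0.04 ± 0.80. Adipoq differed by 0.54 ± 0.83, Cfd by 1.21 ± 0.63, Retn by 1.32 ± 0.90, Adrb3 by 0.61 ± 0.81, Fabp4 by 0.07 ± 0.16 and Pparg by -0.31 ± 0.27 on the log2 scale, and in each the groups overlapped.

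Of the 12 other fat cell genes tested, tamoxifen called Npr3 alone, which rose by 1.63 ± 0.32 (adjusted p = 0.0248). Over all genes, 1.52% were called higher and 1.61% lower. Cyp2e1 and Slc7a10 had log2 differences of -2.56 ± 0.65 and -2.77 ± 0.99 (adjusted p = 0.0544 and 0.0518). Slc7a10 was in the test only through the placebo mice, in which it was high. Of the 18 genes of triglyceride synthesis, Lpl, which frees fatty acids from blood lipids, fell by 0.79 ± 0.17 (adjusted p = 0.0207) and Gpd1 rose by 1.0 ± 0.23 (adjusted p = 0.0357). Of the 12 regulators, Cebpd, an early factor of fat cell differentiation that other stimuli induce too, rose by 1.81 ± 0.36 (adjusted p = 0.0282). Of the genes of lipolysis and the droplet, the receptors and the brown fat genes, edgeR called 0.

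Of the 12 precursor and fibroblast markers, Cd34 and Dpp4 fell by 0.70 ± 0.18 and 1.25 ± 0.33 (adjusted p = 0.0454 and 0.0487), and the sum was between 449.6 and 1624 CPM on tamoxifen. The macrophage markers, none of them called by edgeR, summed to between 30.1 and 85.1 CPM, and the erythroid markers, none of them called by edgeR either, to between 134 and 829 CPM. The Schwann cell markers Mbp and Prx fell by 1.71 ± 0.26 and 1.14 ± 0.28 (adjusted p = 0.00702 and 0.0375). The bone marker Ibsp, named after its values were seen, was at 0.0871, 186, 0 and 0 CPM in tamoxifen mice 1 to 4, and Adipoq and Plin1 were highest in mouse 1 and Fabp4 in mouse 2. The part of other cells in the lower fat genes was not tested.

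In the Dnm2 cohort, Dnm2 S619L/+ and WT mice on placebo differed past the threshold in 1 of the 10 genes, Pparg, which was lower in Dnm2 S619L/+ mice, where 9.81% of all genes were called lower. Tamoxifen called none of the 10 in either genotype by edgeR. Single mice were high in many of the genes at once: WT placebo mouse 4 and Dnm2 S619L/+ placebo mouse 3 were each the highest of their group in 9 of the 10 (Plin4 was the exception), and Dnm2 S619L/+ tamoxifen mouse 3 in 8.

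Adipoq was at 2.80, 1.39, 1.90 and 17.0 CPM in WT placebo mice 1 to 4 and at 4.55, 3.17, 26.9 and 0.712 CPM in Dnm2 S619L/+ placebo mice 1 to 4 (log2 difference 0.61 ± 1.03, adjusted p = 0.719). On tamoxifen it was at 3.66, 2.13, 4.19 and 0.621 CPM in WT and at 1.78, 0.956, 13.1 and 2.87 CPM in Dnm2 S619L/+ mice. The groups overlapped, and the log2 differences from placebo were -1.11 ± 1.05 in WT (adjusted p = 0.442) and -0.91 ± 1.03 in Dnm2 S619L/+ mice (adjusted p = 0.622). Cfd was at 19.9, 6.53, 9.56 and 62.1 CPM in WT placebo and at 27.5, 20.8, 158 and 9.65 CPM in Dnm2 S619L/+ placebo mice (log2 difference 1.13 ± 0.89, adjusted p = 0.388). On tamoxifen Cfd was at 13.4, 16, 22.3 and 4.76 CPM in WT and at 12.8, 6.81, 54.6 and 13.5 CPM in Dnm2 S619L/+ mice. Its log2 differences from placebo were -0.80 ± 0.90 in WT (adjusted p = 0.528) and -1.29 ± 0.89 in Dnm2 S619L/+ mice (adjusted p = 0.396). The mice that were high in Adipoq were high in Cfd. Lep had 21, 3, 10 and 92 reads in WT placebo and 19, 20, 69 and 4 reads in Dnm2 S619L/+ placebo mice (log2 difference 0.53 ± 0.93, adjusted p = 0.707). Retn differed between these groups by 0.92 ± 1.01 on the log2 scale (adjusted p = 0.550).

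Plin1 was at 1.37, 1.22, 0.711 and 8.82 CPM in WT placebo and at 2.32, 1.82, 15.1 and 0.593 CPM in Dnm2 S619L/+ placebo mice (log2 difference 0.70 ± 1.0, adjusted p = 0.670). Cidec was at 2.24, 1.24, 2.61 and 8.71 CPM in WT placebo and at 4.44, 3.02, 13.9 and 1.66 CPM in Dnm2 S619L/+ placebo mice (log2 difference 0.63 ± 0.80, adjusted p = 0.615). In each group 1 mouse stood far above the other 3. Plin4 was at 299.8, 349, 687 and 279 CPM in WT placebo and at 567, 231, 171 and 441 CPM in Dnm2 S619L/+ placebo mice (log2 difference -0.20 ± 0.43, adjusted p = 0.780), and it was lowest in the mouse of each of these groups in which Adipoq was highest. Adrb3 had 51, 7, 2 and 36 reads in WT placebo and 18, 3, 29 and 3 in Dnm2 S619L/+ placebo mice (log2 difference 0.18 ± 0.86, adjusted p = 0.952). For Adipoq, Plin1, Retn and Lep the standard errors were near 1 on the log2 scale, so large changes could also be missed with 4 mice a group. In the Bin1 cohort even a log2 difference of 3.07 in Adipoq, with a smaller standard error, did not pass.

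Pparg was at 6.26, 6.87, 4.43 and 9.51 CPM in WT placebo and at 4.17, 4.22, 4.52 and 3.01 CPM in Dnm2 S619L/+ placebo mice, and it fell by 0.77 ± 0.24 (adjusted p = 0.0322). WT mouse 3 lay within the range of the Dnm2 S619L/+ mice. Fabp4 was at 318, 262, 255 and 483 CPM in WT and at 165, 197, 338 and 134 CPM in Dnm2 S619L/+ placebo mice (log2 difference -0.66 ± 0.25, adjusted p = 0.0662). Dnm2 S619L/+ mice on tamoxifen, at 190.1, 197, 216 and 203 CPM, were all below WT placebo mice, as 13.4% of all genes were, and Fabp4 was lower by 0.71 ± 0.25 (adjusted p = 0.0415), the only gene of the 10 called there. In this comparison 13.1% of all genes were called lower, so 1 of 10 is near the background for Fabp4, as it is for Pparg. The other 9 log2 differences were -0.31 ± 1.04 for Adipoq, -0.16 ± 0.89 for Cfd, 0.31 ± 1.02 for Retn, -0.48 ± 0.97 for Lep, 0.78 ± 0.83 for Adrb3, 0.56 ± 1.0 for Plin1, -0.30 ± 0.81 for Cidec, -0.06 ± 0.43 for Plin4 and -0.50 ± 0.24 for Pparg.

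Pparg lost its call without WT placebo mouse 2 or 4 and without Dnm2 S619L/+ placebo mouse 1, 2 or 4. Fabp4 lost its call without WT placebo mouse 1 or 4, WT tamoxifen mouse 2 or 3 or any of the 4 Dnm2 S619L/+ tamoxifen mice. Without Dnm2 S619L/+ placebo mouse 3, Fabp4 was called lower in Dnm2 S619L/+ than in WT mice on placebo (-1.0, adjusted p = 0.00273). Endothelial markers were lower in the same comparison, where Pecam1, Emcn and Cdh5 fell by 0.92 ± 0.21, 0.92 ± 0.23 and 1.08 ± 0.29 (adjusted p = 0.00676, 0.0124 and 0.0171), 3 of 5 markers. The sum of the 5 was between 353 and 704 CPM in WT and between 164 and 465 CPM in Dnm2 S619L/+ mice on placebo. Pecam1 was at 152, 129, 111 and 206 CPM in WT and at 76.1, 60.4, 118 and 60.5 CPM in Dnm2 S619L/+ placebo mice, and it was highest in the mice in which Fabp4 was highest. The part of endothelium in the levels of Fabp4 and Pparg was not tested.

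Tamoxifen called 8.26% of all genes in Dnm2 S619L/+ mice and 27.7% in WT mice, and 0 of the 10 in each by edgeR and by DESeq2. At an unadjusted p of 0.05, 0 of the 10 passed in Dnm2 S619L/+ mice (25.4% of all genes), where Fabp4 differed by -0.05 ± 0.25, and 1 in WT mice (40.3% of all genes), Fabp4 (log2 difference -0.54 ± 0.25), which was called without Dnm2 S619L/+ placebo mouse 3 (-0.54, adjusted p = 0.0385). The interaction of genotype and tamoxifen was called in 0 of the 10 by edgeR and DESeq2, against 0.259% of all genes by edgeR, and 0 had an unadjusted p under 0.05, as 13.5% of all genes had. The interaction terms (log2) were 0.20 ± 1.48 for Adipoq, -0.50 ± 1.26 for Cfd, -0.18 ± 1.44 for Retn, -0.37 ± 1.37 for Lep, 2.14 ± 1.33 for Adrb3, 0.82 ± 1.43 for Plin1, -0.02 ± 1.16 for Cidec, -0.24 ± 0.61 for Plin4, 0.49 ± 0.35 for Fabp4 and 0.56 ± 0.34 for Pparg. The 4 bone markers summed to between 190 and 693 CPM in WT mice on tamoxifen, to between 4.84 and 329 CPM in Dnm2 S619L/+ mice on tamoxifen and to between 0.339 and 1.05 CPM in WT on placebo, and their part in the levels of the fat genes was not tested.

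On tamoxifen, Plin1 was at 2.43, 1.23, 2.12 and 0.379 CPM in WT mice 1 to 4 of the Dnm2 cohort and at 1.23, 1.04, 11.8 and 4.01 CPM in Dnm2 S619L/+ mice 1 to 4, with log2 differences from placebo of -0.95 ± 1.03 and -0.13 ± 0.99 (adjusted p = 0.491 and 0.957). Cidec was at 2.31, 2.61, 2.40 and 0.517 CPM in WT and at 0.674, 0.916, 7.94 and 2.5 CPM in Dnm2 S619L/+ mice, with differences of -0.90 ± 0.82 and -0.92 ± 0.81 (adjusted p = 0.427 and 0.505). WT mouse 4 was the lowest and Dnm2 S619L/+ mouse 3 the highest in both genes. Lep had 36, 12, 15 and 4 reads in WT and 8, 6, 35 and 10 in Dnm2 S619L/+ mice, with differences of -0.64 ± 0.97 and -1.01 ± 0.96 (adjusted p = 0.633 and 0.522). Adrb3 had 7, 8, 1 and 0 reads in WT and 20, 2, 49 and 15 in Dnm2 S619L/+ mice, with differences of -1.54 ± 1.04 and 0.60 ± 0.84 (adjusted p = 0.150 and 0.666). In both genes the counts of tamoxifen and placebo mice overlapped. Retn, Plin4 and Pparg differed from placebo by -0.42 ± 1.04, 0.37 ± 0.43 and -0.29 ± 0.24 in WT (adjusted p = 0.756, 0.551 and 0.378). In Dnm2 S619L/+ mice they differed by -0.61 ± 1.0, 0.13 ± 0.43 and 0.27 ± 0.24 (adjusted p = 0.745, 0.886 and 0.519).

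The wider lists held calls in the Dnm2 cohort. In Dnm2 S619L/+ against WT mice on placebo, where 12.1% of all genes were called higher and 9.81% lower, 3 of 12 regulators of fat cell transcription rose and 3 fell, with Cebpa at 1.07 ± 0.23, Stat5a at 0.59 ± 0.13 and Rxra at -0.45 ± 0.11 (adjusted p = 0.00371, 0.00480 and 0.0113). Of 18 genes of triglyceride synthesis 2 rose and 4 fell, with Lpl at -1.08 ± 0.15, Gpd1 at -0.98 ± 0.23 and Agpat2 at 0.64 ± 0.16 (adjusted p = 0.000177, 0.00856 and 0.0119). Of 16 genes of lipolysis and the droplet 1 rose and 3 fell, and Plin3, a perilipin of many tissues, fell by 1.31 ± 0.16 (adjusted p = 9.90e-05). Of 11 receptors 3 fell, among them Adipor2, a receptor of adiponectin, by 0.56 ± 0.10 (adjusted p = 0.00196). Of 17 other fat cell genes 2 fell, Car3, a carbonic anhydrase that muscle fibers also make, by 1.58 ± 0.22 and Sncg by 0.71 ± 0.24 (adjusted p = 0.000248 and 0.0462). The shares of the other fat cell genes that fell, of the genes of triglyceride synthesis that rose and of those of lipolysis that rose are near these backgrounds or below them.

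Tamoxifen in WT mice lowered 6 of 16 genes of lipolysis and the droplet, where 11.9% of all genes were called lower, with Fitm2, Pnpla2 (the main triglyceride lipase) and Acsl1 falling by 0.58 ± 0.11, 0.73 ± 0.15 and 0.70 ± 0.16 (adjusted p = 0.00127, 0.00279 and 0.00567). It lowered 3 of 18 genes of triglyceride synthesis, Lpl, Dgat2 and Gpam. In Dnm2 S619L/+ mice edgeR called 0 of either list. Of the 17 other fat cell genes, Aspg rose by 3.90 ± 0.67 in WT (adjusted p = 0.000690) and by 4.52 ± 0.98 in Dnm2 S619L/+ mice (adjusted p = 0.00293). The interaction was called in Lpl alone of the fat lists (1.11 ± 0.21, adjusted p = 0.0470).

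Differences between the cohorts were tested in a fit of all 28 mice. The disease effect (Bin1 mck-/- against WT, minus Dnm2 S619L/+ against WT, on placebo) differed past the threshold in 0 of the 10 genes by edgeR, where 0.312% of all genes were called. At an unadjusted p of 0.05, 3 of the 10 passed, as did 13.5% of all genes: Adrb3 (difference of log2 effects 2.99 ± 1.26, adjusted p = 0.151), Cidec (2.93 ± 1.17, adjusted p = 0.232) and Cfd (2.60 ± 1.21, adjusted p = 0.348). The tamoxifen effect in diseased mice differed in 0 of the 10 by edgeR, where 1.71% of all genes were called, and 2 of the 10 passed an unadjusted p of 0.05, as did 24% of all genes: Adrb3 (-3.15 ± 1.16, adjusted p = 0.0658) and Plin1 (-3.20 ± 1.47, adjusted p = 0.147). For the disease effect 6 of the other differences were 2.46 ± 1.5 for Adipoq, 2.21 ± 1.5 for Retn, 2.66 ± 1.45 for Plin1, 0.32 ± 0.54 for Plin4, 0.64 ± 0.31 for Fabp4 and 0.36 ± 0.37 for Pparg. For the tamoxifen effect 7 of the others were -1.65 ± 1.48 for Adipoq, -1.27 ± 1.19 for Cfd, -1.22 ± 1.42 for Retn, -1.24 ± 1.11 for Cidec, 0.45 ± 0.54 for Plin4, 0.12 ± 0.31 for Fabp4 and -0.19 ± 0.38 for Pparg. Lep, with 0 reads in both WT and tamoxifen mice of the Bin1 cohort, is given no value in these tests. Without Dnm2 S619L/+ placebo mouse 3, Adrb3 passed in both tests (3.96, adjusted p = 0.0423, and -4.09, adjusted p = 0.0416), and without Dnm2 S619L/+ tamoxifen mouse 4 in the latter (-3.32, adjusted p = 0.0376). In the fit of all mice, the rise in the Bin1 cohort was thus not shown to differ from the change in the Dnm2 cohort. Of the fat lists, Lpl differed in both tests (1.25 ± 0.22 and -0.88 ± 0.22, adjusted p = 0.0113 and 0.0460) and Plin3 in the disease effect (1.45 ± 0.29, adjusted p = 0.0278). Dio2, from the list of brown fat genes, differed in the tamoxifen effect (-3.54 ± 0.65, adjusted p = 0.0183). The cells that gave its reads were not tested.

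WT placebo mice of the cohorts are set side by side without a test. Adipoq was between 0.0640 and 0.662 CPM in WT mice of the Bin1 cohort and between 1.39 and 17.0 CPM in those of the Dnm2 cohort. Cfd was between 2.24 and 3.77 CPM in the former and between 6.53 and 62.1 CPM in the latter. For both genes every WT mouse of the Bin1 cohort was below every WT mouse of the Dnm2 cohort. The same held for Plin1, Cidec, Adrb3 and Lep, whereas Retn, Fabp4, Pparg and Plin4 overlapped. The share of all genes that separate in this way is not given here. Ddx3y had no read in WT mice of the Bin1 cohort and was present in some WT placebo mice of the Dnm2 cohort. The 4 Bin1 mck-/- placebo mice, with Adipoq between 1.80 and 6.0 CPM, lay within the range of WT mice of the Dnm2 cohort.

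Across the 16 mice of the Dnm2 cohort, Adipoq was compared with each of the 9 other genes as log2(CPM + 0.01), with permutation p-values adjusted over the 9. Cfd had the highest Pearson's r with Adipoq, and Plin1 had the highest Spearman's rho. The values for Cfd were r = 0.958 and rho = 0.935 (permutation p = 1.0e-05 and 1.0e-05, adjusted 1.8e-05 and 4.5e-05). Plin1, Cidec, Retn and Lep had r of 0.950, 0.916, 0.916 and 0.881 and rho of 0.941, 0.865, 0.921 and 0.850. For these 5 genes the permutation p of r was 1e-05, the smallest that the permutations can give, and that of rho was at most 0.000130 (adjusted 0.000234). Without the mice farthest from the median of Adipoq, Dnm2 S619L/+ placebo mouse 3 and WT placebo mouse 4, r was 0.922 for Cfd, 0.910 for Plin1, 0.846 for Cidec, 0.888 for Retn and 0.776 for Lep. Adrb3 had r = 0.731 and rho = 0.594 (permutation p = 0.00127 and 0.0179, adjusted 0.00190 and 0.0268), and r = 0.665 without these mice.

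Fabp4 had r = 0.507 and rho = 0.244 (permutation p = 0.0450 and 0.360, adjusted 0.0578 and 0.360), and its r was 0.0290 without the same mice, so it rested on them. Pparg had r = 0.405 and rho = 0.379 (permutation p = 0.119 and 0.147, adjusted 0.119 and 0.189), and r = 0.345 without them. Plin4 had r = -0.492 and rho = -0.344 (permutation p = 0.0542 and 0.194, adjusted 0.0610 and 0.218), and r = -0.233 without them. As deviations from the group means, r was 0.975 for Plin1, 0.974 for Cfd, 0.934 for Cidec, 0.926 for Retn, 0.887 for Lep and 0.811 for Adrb3, so these relations were also present within groups. Cfd had 3.65 to 13.6 reads for each Adipoq read in the 16 mice, while Adipoq itself ranged from 0.621 to 26.9 CPM.

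**Figure D4:**
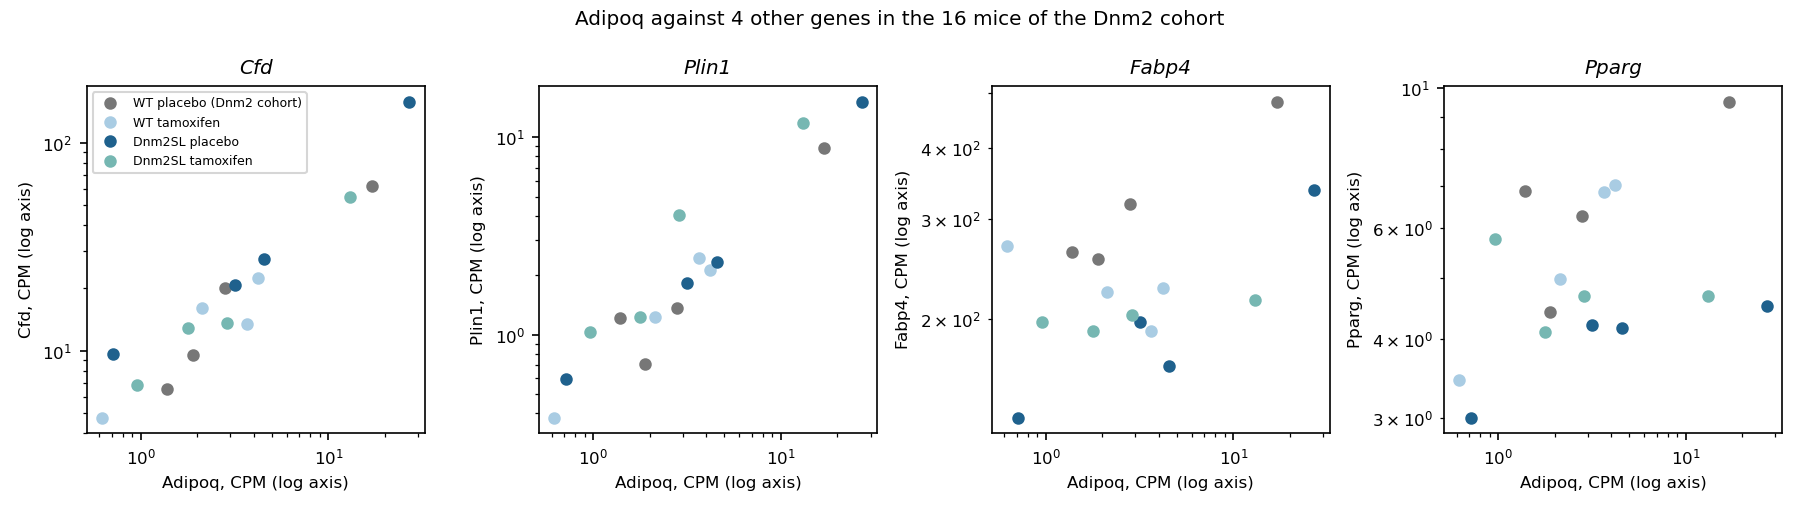
Level of Cfd, Plin1, Fabp4 and Pparg (vertical axes, CPM, log scale) against Adipoq (horizontal axis, CPM, log scale) in the 16 mice of the Dnm2 cohort, colored by group, 1 point a mouse. Cfd and Plin1 rise with Adipoq over the whole range (r of 0.958 and 0.950 on the log2 scale), whereas Fabp4 and Pparg scatter (r of 0.507 and 0.405).

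The genes most like Adipoq were ranked by the lower of the r values of log2 CPM over the 12 mice of the Bin1 cohort and over the 16 of the Dnm2 cohort, among 14571 genes. The first 10 were Slc7a10 (lower r 0.924), Cfd (0.90), Plin1 (0.858), Retn (0.850), Scd1 (0.844), Cyp2e1 (0.823), Cdo1 (0.817), Cidec (0.801), Pck1 (0.771) and Ifi27l2a (0.768). Of these, 4 belonged to the 10 adipocyte genes, and 8 were also among the first 10 by Spearman's rho. Adrb3 ranked 12, whereas Pparg ranked 2819, Fabp4 6319 and Plin4 12216. Scd1, which makes monounsaturated fatty acids, was at 14.0 ± 2.09 CPM in WT and 34.0 ± 4.32 CPM in Bin1 mck-/- placebo muscle (SD, n = 4 each, edgeR adjusted p = 0.193). Cdo1, which oxidizes cysteine, was at 0.927 ± 0.411 and 4.78 ± 2.51 CPM (edgeR adjusted p = 0.0532). The r over the Bin1 cohort includes the separation of its groups and is a description only.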

How the data were processed

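Raw read counts per gene, as deposited for the 12 mice of the Bin1 cohort and the 16 of the Dnm2 cohort in separate tables, were the values used. The authors' tools, from the submitters' processing notes, which give no order, were bcl2fastq 2.20.0.422, cutadapt 1.10, Bowtie 1.2.2, STAR 2.5.3 and HTSeq 0.6.1p1, with the build mm39. Groups came from the labels. In the table of the Bin1 cohort, 4 lines that name no gene, 22.0% to 30.8% of a mouse's counts, were left out. Symbols came from a GENCODE M21 table, which named 52083 identifiers, and lengths from its exons.

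Counts were tested with edgeR 4.0.16 in R 4.3.3 (filterByExpr, TMM, robust quasi-likelihood fit, prior count 2) in 1 fit per cohort, and in a joint fit of all 28 mice for the 2 differences between cohorts. P-values were Benjamini-Hochberg adjusted over all genes tested, at a threshold of 0.05. SEs are approximate, from the fitted coefficients. The fit was tested on simulated counts. Correlations used 1e+05 two-sided permutations. Nothing says whether libraries of a group were prepared apart, so p-values measure the spread between these mice. No 2 libraries of a group agreed within sampling noise (chi-square per gene 15.6 or more in 42 pairs). Depth limits genes with few reads.

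The 10 genes and the further lists were chosen with earlier results of these data known. The text gives all genes of the 10 that were tested in each comparison (Lep has no value between cohorts), up to 3 genes of each further list with the smallest p among those called, the 10 genes most like Adipoq, and Bin1 as a check of the labels, and says where a gene falls outside this rule. Alternatives tried were RLE factors or library size only, no filter or a filter of over 10 reads in 90% of mice, DESeq2 1.42.0, Xist as a covariate, only the groups compared, replicate number as a block and each mouse left out. 1 further result of the lists is not reported here.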

Additional observations from a re-analysis of the deposited data

Results flagged for a closer look

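In 15 of 68 groups of 4 mice tested, over the 10 adipocyte genes, 1 mouse stood apart from the other 3. Its gap over the range, taken on CPM, was above Dixon's critical value. Chance gives about 1 in 20 only for normally distributed values, which CPM of genes with few reads need not be. The count is therefore a description. The genes are also not independent because their levels were correlated across mice. In the Bin1 cohort, Adipoq and Retn were apart in Bin1 mck-/- tamoxifen mouse 1, at 1.96 and 2.48 CPM. Lep was apart in Bin1 mck-/- placebo mouse 1, at 0.266 CPM. Retn was apart in WT mouse 6, at 0.556 CPM.

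In the Dnm2 cohort, WT placebo mouse 4 stood above its group in Adipoq, Plin1 and Retn, at 17.0, 8.82 and 4.60 CPM. Dnm2 S619L/+ placebo mouse 3 stood above its group in Adipoq, Plin1 and Cfd, at 26.9, 15.1 and 158 CPM. Dnm2 S619L/+ tamoxifen mouse 3 stood above its group in Adipoq, Lep, Cfd and Retn, at 13.1, 1.40, 54.6 and 5.65 CPM. WT tamoxifen mouse 4 stood below its group in Cidec, at 0.517 CPM.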

How the results depend on the processing

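Of 159 alternative fits of the 8 single-gene results that passed the threshold, 111 still passed and 0 changed sign. The 8 were taken because they passed, and the fits reuse the same mice, so these counts are descriptions. Among them, Plin1 and Adrb3 entered the test only through the Bin1 mck-/- placebo mice, in which they were high. Between Bin1 mck-/- and WT mice on placebo, 4 genes were called, and 1 of the 4 tested under the filter of over 10 reads in 90% of mice; leaving out 1 mouse gave 0 to 6. For tamoxifen in Bin1 mck-/- mice, 2 genes were called, against 4 by library size only, 0 of the 4 tested under that filter, 5 by DESeq2, 1 with Xist as a covariate and 0 with only the groups compared, and leaving out 1 mouse gave 0 to 6. In this cohort Ddx3y had no read, and Xist averaged 78.2 CPM in WT, 86.9 in Bin1 mck-/- placebo and 97.7 in Bin1 mck-/- tamoxifen mice. The Xist covariate there says nothing on sex and can take up part of the differences between groups. Between Bin1 mck-/- mice on tamoxifen and WT, 0 were called, 1 by DESeq2 and 0 without any 1 mouse. Between Dnm2 S619L/+ and WT mice on placebo, 1 was called, against 0 by library size only, 2 by DESeq2 (Pparg and Fabp4) and 0 with the replicate block, and leaving out 1 mouse gave 0 to 2. Between Dnm2 S619L/+ mice on tamoxifen and WT on placebo, 1 was called, against 0 by library size only, with no filter, with Xist as a covariate and with the replicate block, and leaving out 1 mouse gave 0 to 1. Leaving out 1 mouse gave 0 to 1 for tamoxifen in WT mice and for both differences between cohorts, and 0 for tamoxifen in Dnm2 S619L/+ mice and the interaction. For these results the cause was not tested.

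Deviations of same-numbered mice from their group means correlated at -0.18 to 0.15 in 4 pairs of the Bin1 cohort. In 24 pairs of the Dnm2 cohort they correlated at -0.32 to 0.33. These values gave no sign that the replicate numbers pair the mice. Among the adipocyte genes, mouse 1 was the highest of both Bin1 mck-/- groups in Adipoq, Plin1, Cidec, Cfd and Retn. In Adrb3, Fabp4, Pparg and Plin4 the highest mouse had a different number in each of these groups. Whether the numbers pair the mice in the adipocyte genes alone was not tested. With the replicate block on the 8 Bin1 mck-/- mice, 3 genes were called lower on tamoxifen, Plin1, Cidec and Cfd (adjusted p of Adrb3 0.0700). In the Dnm2 cohort the block gave 0 calls in each comparison, with Pparg at -0.79 (adjusted p = 0.0566) and Fabp4 at -0.71 (adjusted p = 0.0564). WT mice of the Bin1 cohort share no number with the others.

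Scaling by library size only moved the median log2 fold change of all genes to 0.13 for Bin1 mck-/- against WT, -0.16 for tamoxifen in Bin1 mck-/-, 0.28 for Dnm2 S619L/+ against WT, 0.24 for tamoxifen in WT, 0.35 for Dnm2 S619L/+ on tamoxifen against WT and -0.21 for the interaction. The share of calls that were higher went from 48.5% to 21.0% for tamoxifen in Bin1 mck-/-, from 55.2% to 91.1% for Dnm2 S619L/+ against WT, from 63.2% to 74.6% for tamoxifen in Dnm2 S619L/+, from 57.1% to 92.0% for tamoxifen in WT and from 54.6% to 93.2% for Dnm2 S619L/+ on tamoxifen against WT. With only the groups compared, 1458 genes were called for Bin1 mck-/- against WT (388 in the cohort fit) and 122 for tamoxifen in Bin1 mck-/- (464).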
